A study of Homo sapiens with 16 samples.

Results

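Integrin and laminin genes were followed in drug-resistant human melanoma cells kept on MAPK pathway inhibitors and at intervals after the drug was replaced with DMSO. The genes were taken from the count table by name and biotype: every protein-coding row whose symbol is an integrin alpha or beta chain or a laminin alpha, beta or gamma chain. The rule found 37 of the 30813 genes in the table, made up of 25 integrins and 12 laminins. ITGA8 was not analysed here. RNA sequencing of total RNA covered 16 libraries in 8 groups of 2. The resistant A375 cells (labelled DR) were kept on dabrafenib at 0.5 µM with trametinib at 0.05 µM and were sampled on drug and 6, 24 and 48 h after withdrawal into DMSO. The resistant 451Lu cells (labelled BR) were kept on dabrafenib at 1 µM by the treatment notes, although their source name speaks of resistance to trametinib as well, and were sampled on drug and 24, 72 and 120 h after withdrawal. Dabrafenib inhibits mutant BRAF and trametinib inhibits MEK, the kinase below it. Both are established melanoma lines, grown in culture, and every group carries the resistant state, so no drug-naive parental cells enter any comparison. Each line is a single derivative on its own drug schedule, and line and drug cannot be told apart.

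Integrins are cell surface receptors made of an alpha and a beta chain, which together bind matrix proteins outside the cell and, through adaptors such as talin and kindlin, the actin cytoskeleton inside it. The alpha chain largely sets the ligand: some bind collagens, some laminins, some the RGD motif of fibronectin and vitronectin, and a separate group works on leukocytes. Laminins are secreted trimers of an alpha, a beta and a gamma chain that form the framework of basement membranes and are themselves integrin ligands. In melanoma, changes in these receptors accompany the shift between pigmented and invasive cell states.

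Library totals ran from 10863255 to 16691725 counts in A375 and from 9714190 to 16447548 in 451Lu. Levels are given as CPM, counts scaled to the library total after TMM adjustment, and are set within each line unless stated. A gene was called when its adjusted p was under 0.05 in edgeR's quasi-likelihood test over all genes tested in the line. Nothing in the labels tells whether the 2 libraries of each group are separate cultures, and the p-values then cover only the spread seen among these libraries, which may be technical. All 8 melanocyte markers listed as a check on the cells are in the table, and TYRP1 was at 0 in both 451Lu libraries at 120 h, where DCT had 2 and 3 counts. Their summed level went from 5388 and 5530.5 CPM on drug to 1020.1 and 1113 at 48 h in A375. In 451Lu it went from 10673 and 11264 to 949.6 and 1084 at 120 h. On drug most of this sum came from DCT in A375 and from PMEL in 451Lu. The markers fell unevenly. Their log2 fold changes ran from -5.79 to -0.19 in A375 at 48 h and from -9.19 to -0.17 in 451Lu at 120 h. Mitochondrial genes took 4.81% to 5.53% of counts on drug and 2.60% to 3.70% off drug in A375, and 5.51% to 6.11% against 3.97% to 5.08% in 451Lu. The part of these shifts in the results below was not tested. Because these are bulk samples, a change in the number of cells with a transcript and a change in its amount per cell cannot be told apart.

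Of the 37 genes, 27 had enough counts to be tested in both lines, ITGA9 only in A375 and ITGA11 only in 451Lu. The other 8 (ITGA2B, ITGAD, ITGAL, ITGAM, ITGB2, ITGB6, ITGB7 and LAMB4) never exceeded 9 counts in any library. In A375, 13 of the 28 genes tested rose and 5 fell at 6 h. Of all genes tested at that time, 73.3% were called, 35.1% higher and 38.1% lower. At 24 h 17 members rose and 4 fell (background 72.6%, with 36.2% higher and 36.3% lower), and at 48 h 15 rose and 8 fell (72.6%, with 36.6% higher and 36% lower). In 451Lu, 17 of 28 members rose and 7 fell at 24 h (background 54.1%, with 29.2% higher and 24.9% lower). At 72 h 21 rose and 7 fell (67.7%, with 34.2% and 33.4%), and at 120 h 21 rose and 5 fell (73.8%, with 37.3% and 36.6%). With so many genes called at every time, a call by itself sets no member apart. Under upper-quartile scaling the split at 6 h in A375 became 12 higher and 9 lower.

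The calls were also counted apart for integrins, which made up 17 of the 28 members tested in each line, and for laminins. Of the 17 integrins tested in A375, 10, 11 and 11 rose at 6, 24 and 48 h and 2, 3 and 4 fell. In 451Lu 12, 15 and 15 of 17 rose at 24, 72 and 120 h and 1, 2 and 2 fell. The 11 laminins tested were divided: 3, 6 and 4 rose and 3, 1 and 4 fell in A375, and 5, 6 and 6 rose and 6, 5 and 3 fell in 451Lu. The median log2 fold change of the integrins was 0.59, 0.74 and 1.08 in A375, where the median of all genes tested was -0.06, -0.02 and -9.01e-04. Some members passed the count filter only where they were high, among them ITGA1, ITGA11 and LAMA3 in 451Lu, and ITGAX and ITGB4 in both lines. Such a member had to differ, so its call is no support for a change. These counts and medians therefore describe the genes that passed and not the family as a whole. Restricted to changes of at least 2-fold, 11 members rose and 1 fell in A375 at 48 h, where 10.5% and 13.4% of all genes did so. In 451Lu at 120 h 21 rose and 3 fell by at least 2-fold, against 18.5% and 14.4% of all genes.

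Promoter sequence is shown for 4 members chosen after their values were seen, as examples of different patterns: ITGA5 and ITGA10, which rose in both lines, ITGA2, which rose unevenly, and LAMA3, which fell in 451Lu. The sequences are RefSeq's (GRCh38.p14), 151 bases from 150 before the annotated start to its first base, 5′ to 3′ on the gene's strand. Capitals mark matches on either strand to the AP-1 motif TGANTCA or the TEAD motif GGAATG, which reads CATTCC on the other strand.
ITGA5 (chr12:54419266-54419416, minus strand): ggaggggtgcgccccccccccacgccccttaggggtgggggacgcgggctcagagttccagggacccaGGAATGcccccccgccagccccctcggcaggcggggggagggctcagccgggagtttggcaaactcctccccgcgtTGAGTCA
ITGA10 (chr1:145910050-145910200, minus strand): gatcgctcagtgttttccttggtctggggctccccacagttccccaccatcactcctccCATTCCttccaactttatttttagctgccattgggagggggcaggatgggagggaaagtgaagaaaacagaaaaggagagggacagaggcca
ITGA2 (chr5:52989202-52989352, plus strand): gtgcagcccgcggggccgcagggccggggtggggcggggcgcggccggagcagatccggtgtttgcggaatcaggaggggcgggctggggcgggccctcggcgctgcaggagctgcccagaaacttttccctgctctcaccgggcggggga
LAMA3 (chr18:23872870-23873020, plus strand): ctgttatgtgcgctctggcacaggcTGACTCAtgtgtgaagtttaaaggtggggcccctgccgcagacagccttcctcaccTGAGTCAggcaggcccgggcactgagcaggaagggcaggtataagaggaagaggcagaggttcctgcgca

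ITGA5 has an AP-1 match that ends on the first base of the transcript and a TEAD match 82 to 77 bases before it. LAMA3 has AP-1 matches 125 to 119 and 69 to 63 bases before its start, which lies inside the gene as the table gives it (chromosome 18, 23689443 to 23955066). ITGA2 has neither motif in this stretch. Over the full 300-base promoters, which matched 25 of the 37 members by symbol, an AP-1 match was present in 2 and a TEAD match in 4. Among all 35116 promoters of the table the shares were 7.71% and 14%. The GC box GGGCGG was found in 13 of the 25 members and 45% of all promoters, and an E-box (CACGTG or CATGTG) in 5 of 25 and 17.6%. The counts are per gene, so transcripts from the LAMA3 start shown cannot be told apart from others of the gene. A match is no evidence of binding, and any part of these motifs in the changes was not tested.

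Among the receptors for collagen, ITGA2, ITGA10 and, in 451Lu, ITGA1 and ITGA11 rose by 43.4-fold or more at the last time off drug, while in A375 ITGA2 and ITGA10 rose, by 6.58- and 6.38-fold. All of these alpha chains pair with ITGB1. In A375 ITGA2 (chromosome 5, 52989326 to 53094779, GRCh38) stood at 29.03 and 28.95 CPM on drug, 154 and 149 at 6 h, 65.2 and 68.2 at 24 h and 199.6 and 182 at 48 h. Its level was thus high, lower and high again, and none of the 4 groups overlapped. The log2 fold change was 2.39 ± 0.06 (SE) at 6 h, -1.19 ± 0.06 between 6 and 24 h (adjusted p = 3.49e-19) and 1.52 ± 0.06 between 24 and 48 h (adjusted p = 2.87e-21). In 451Lu ITGA2 stood at 6.14 and 4.42 CPM on drug and at 70.0 and 72.6, 349.8 and 297, and 457 and 416 CPM at 24, 72 and 120 h. That line showed a rise at each step, to 83.5-fold at 120 h (log2 6.38 ± 0.12, adjusted p = 1.44e-16).

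ITGA10, a collagen receptor chain best known from cartilage, began near 1 CPM in both lines. In A375 its libraries gave 1.36 and 0.892 CPM on drug, 4.27 and 3.35 at 6 h, 11.31 and 10.95 at 24 h and 7.93 and 6.75 at 48 h. In 451Lu they gave 1.03 and 1.27, 20.8 and 22.1, 46.8 and 55.3, and 45.8 and 56.1 CPM over the 4 groups. ITGA10 was 6.38-fold higher in A375 at 48 h (log2 2.67 ± 0.24) and 43.4-fold higher in 451Lu at 120 h (log2 5.44 ± 0.17). It rested on 13 to 23 counts per library on drug.

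ITGA11, a collagen receptor chain of fibroblasts, and ITGA1, a widely expressed one, rose late in 451Lu and were not called higher at any time in A375. ITGA11 stood at 0.388 and 0.221 CPM on drug (6 and 4 counts) and 0.697 and 0.416 at 24 h, then at 40.8 and 29.9 at 72 h and 85.6 and 79.3 at 120 h. The 24 h change was not called (adjusted p = 0.262), and that at 120 h was 268-fold (log2 8.07 ± 0.22). In A375 no library held more than 2 counts of ITGA11 and the gene was not tested there. ITGA1 gave 0.323 and 0.221 CPM on drug in 451Lu, 0.418 and 0.831 at 24 h, 8.38 and 12.1 at 72 h and 32.2 and 22.8 at 120 h (log2 6.64 ± 0.32). In 451Lu both genes passed the count filter only through off-drug groups where they were high, so no p-value is given for their rise. In A375 ITGA1 stayed between 12.1 and 16.8 CPM in all 8 libraries. Its fall of 0.27 on the log2 scale at 6 h there was lost under relative log expression scaling (adjusted p = 0.0585). A small part of the ITGA1 exons (6.4%) overlaps other gene models, among them PELO on the same strand.

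The laminin receptors were led by ITGA3, whose product binds laminins of the epidermal and vascular basement membranes. ITGA3 (chromosome 17, 50055968 to 50090481) had 17.3 and 17.6 CPM on drug in A375, 171 and 166 at 6 h, 501 and 485 at 24 h and 324 and 339 at 48 h. The rise was 9.67-fold at 6 h (log2 3.27 ± 0.06) and 28.3-fold at 24 h (adjusted p = 7.00e-37), and the level fell by 0.57 on the log2 scale between 24 and 48 h. In 451Lu ITGA3 had 19.4 and 16.6 CPM on drug, 389 and 342 at 24 h, 1035 and 945 at 72 h and 967 and 956 at 120 h. The line thus started at a similar level and settled after 72 h: the step to 120 h was not called (log2 -0.04 ± 0.07, adjusted p = 0.688).

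ITGA6, whose chain forms laminin receptors with ITGB1 or ITGB4, was already abundant on drug and rose modestly. Its A375 libraries gave 267 and 259 CPM on drug, 404 and 388 at 6 h, 480.1 and 489 at 24 h and 562.04 and 548 at 48 h (log2 1.08 ± 0.04 at 48 h). Its 451Lu libraries gave 194 and 187 CPM on drug, then 529.6 and 554, 604 and 619, and 615 and 660.4 (log2 1.74 ± 0.06 at 120 h). The rise in 451Lu was nearly complete at 24 h, where it was 1.51 ± 0.06 on the log2 scale.

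ITGA7, a laminin receptor chain known chiefly from muscle, rose late in 451Lu, from 4.13 and 3.21 CPM on drug and 5.37 and 4.65 at 24 h to 21.1 and 21.7 at 72 h and 44.1 and 51.3 at 120 h. That is 13.05-fold at the end (log2 3.71 ± 0.13, adjusted p = 2.56e-13). The 24 h change of 0.47 ± 0.19 there is at the edge of the threshold (adjusted p = 0.0472) and was lost with DESeq2 (adjusted p = 0.104) and without 451Lu on drug replicate 2 (log2 0.28, adjusted p = 0.319), 24 h replicate 1 (0.35, adjusted p = 0.263) or 24 h replicate 2 (0.56, adjusted p = 0.0528). In A375 ITGA7 lay between 8.03 and 12.4 CPM and was called only at 24 h (log2 0.56 ± 0.12). ITGB4, the partner of ITGA6 in hemidesmosomes, stayed scarce: its A375 libraries gave 0.354 and 0.412 CPM on drug, 0.623 and 0.186 at 6 h, 0.251 and 0.856 at 24 h and 1.38 and 1.26 at 48 h. In 451Lu they gave 0.517 and 0.608, 0.558 and 0.665, 1.72 and 1.71, and 1.28 and 1.73 CPM. No library of either line held more than 19 counts of ITGB4. The calls at 48 h in A375 (log2 1.77 ± 0.50) and at 120 h in 451Lu (1.39 ± 0.38) rest on these counts. In both lines ITGB4 passed the count filter only where it was high, so these calls are no support for a rise. The 120 h call was lost without 120 h replicate 2 (log2 1.13). The step from 24 to 48 h in A375 (1.36 ± 0.49) was 0.62 and not called without 24 h replicate 1, and 2.35 without 24 h replicate 2.

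The receptors for fibronectin and vitronectin changed unevenly: ITGA5, ITGB3 and ITGB8 rose strongly, ITGB5 moderately, and ITGAV, the alpha chain that these beta chains share, fell. ITGA5 (chromosome 12, 54395261 to 54419460), the alpha chain of the main fibronectin receptor and the gene with the AP-1 match at its start, had 76.3 and 74.1 CPM on drug in A375 and 241 and 243, 505 and 477, and 577 and 621 CPM at 6, 24 and 48 h. The 451Lu libraries had 35.1 and 35.8 CPM on drug, then 358 and 313, 1169.5 and 949.6, and 1825 and 1577. Each step was called in both lines, and the rise reached 7.96-fold in A375 (log2 2.99 ± 0.05, adjusted p = 7.07e-33) and 48.0-fold in 451Lu (log2 5.58 ± 0.11, adjusted p = 3.29e-16).

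ITGAV, in contrast, gave 366 and 351 CPM on drug in A375, 339 and 359 at 6 h, 271 and 285 at 24 h and 238 and 214 at 48 h, a fall of 0.67 on the log2 scale (SE 0.05). In 451Lu it lay at 236 and 230.4 CPM on drug and between 165 and 206 CPM off drug, with falls of 0.25, 0.48 and 0.25 on the log2 scale at 24, 72 and 120 h, each called, the first not without 24 h replicate 1 (log2 -0.19).

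The beta chains that pair with ITGAV did not follow it. ITGB3, the vitronectin receptor chain, had 44.1 and 42.3 CPM on drug in A375, 143 and 135 at 6 h, 216 and 213 at 24 h and 176 and 176 at 48 h. The 451Lu levels were 21.7 and 19.7 CPM on drug, 202 and 200.3 at 24 h, 354 and 303 at 72 h and 551 and 533 at 120 h. It was therefore highest at 24 h in A375 (log2 2.31 ± 0.05) and at 120 h in 451Lu (log2 4.71 ± 0.08). Of the ITGB3 exon bases, 51.6% are shared with a read-through gene model on the same strand, so some of its reads may have been counted elsewhere.

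ITGB8, whose receptor with ITGAV binds latent TGF-beta, had 43.4 and 42.4 CPM on drug in A375, 209 and 216 at 6 h, 395 and 408 at 24 h and 244 and 202 at 48 h. Its 451Lu levels were 16.02 and 13.7, 76.1 and 76.9, 176 and 177, and 329 and 413 CPM. It too peaked at 24 h in A375 (log2 3.22 ± 0.06, then a fall of 0.85 to 48 h) and climbed at every step in 451Lu, to 25.0-fold (log2 4.64 ± 0.11). ITGB5, another vitronectin receptor chain, moved from 45.7 and 39.9 CPM on drug to between 57.4 and 85.6 off drug in A375. Its 451Lu libraries gave 57.2 and 62.0 CPM on drug, 156 and 148 at 24 h, 247 and 261 at 72 h and 278 and 275 at 120 h (log2 2.21 ± 0.06). ITGA2B and ITGB6, the remaining members of this group in the table, had at most 5 counts in any library.

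ITGB1, the beta chain shared by the collagen, laminin and fibronectin receptors, rose in both lines, at the last time by less than its partners ITGA2, ITGA3, ITGA5 and ITGA10 in each. ITGA1, ITGA7 and ITGA11 in 451Lu, and ITGA6 in A375, also rose by more than ITGB1. Some other alpha chains rose by less than ITGB1 or did not rise. Among these were ITGA4, ITGA6 and ITGAV in 451Lu, and ITGA1, ITGA4, ITGA7, ITGA9 and ITGAV in A375. The A375 libraries of ITGB1 gave 370.5 and 374 CPM on drug, 671 and 673 at 6 h, 616 and 629.9 at 24 h and 644 and 612 at 48 h, or 1.67- to 1.81-fold off drug. The small fall from 6 to 24 h (log2 -0.11, adjusted p = 0.0199) was called, but not under upper-quartile scaling (log2 -0.07, adjusted p = 0.139). Its 451Lu libraries gave 302 and 294 CPM on drug, 761 and 744 at 24 h, 1656 and 1426 at 72 h and 2367 and 2073 at 120 h. There the rise grew at every step and reached 7.45-fold (log2 2.90 ± 0.08, adjusted p = 8.23e-15).

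ITGA4 and ITGA9, related chains that bind VCAM1, osteopontin and tenascin, had more counts on drug in A375 than in 451Lu. ITGA9 (chromosome 3, 37452115 to 37823514) fell there at every step, from 71.9 and 71.5 CPM on drug to 39.1 and 42.3 at 6 h, 24.7 and 22.7 at 24 h and 12.7 and 8.64 at 48 h. At 48 h it was 6.72-fold lower (log2 -2.75 ± 0.10, adjusted p = 3.12e-23), the only integrin that fell by 2-fold or more against on drug in either line. In 451Lu it had at most 5 counts in any library. ITGA4 lay between 151 and 207 CPM in the A375 libraries and fell by 0.33 on the log2 scale at 48 h. In 451Lu it had 5.30 and 3.87 CPM on drug, 8.72 and 8.81 at 24 h, 19.0 and 18.5 at 72 h and 16.9 and 14.7 at 120 h, a rise of 1.80 ± 0.15.

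Of the integrins named for leukocytes, ITGAX showed the largest integrin rise at 6, 24 and 48 h in A375 and was second to ITGA11 at 120 h in 451Lu. ITGAX (chromosome 16, 31355134 to 31382997) encodes the alpha chain of a complement receptor of dendritic cells and macrophages and pairs with ITGB2. In A375 it had 0.295 and 0.549 CPM on drug (5 and 8 counts), 9.79 and 8.84 at 6 h, 14.6 and 14.2 at 24 h and 13.2 and 13.3 at 48 h. In 451Lu it had 0.323 and 0.442 CPM on drug (5 and 8 counts), 5.72 and 5.82 at 24 h, 38.5 and 28.4 at 72 h and 101 and 78.0 at 120 h. The rise was 31.4-fold at 48 h in A375 (log2 4.97 ± 0.24) and 227-fold at 120 h in 451Lu (log2 7.82 ± 0.24). ITGAX passed the count filter only through off-drug groups in both lines, so no p-value is given for the rise. Its fold size and rank rest on the 5 and 8 counts on drug.

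Its partner did not move with it. ITGB2 had at most 4 counts in any of the 16 libraries and was at 0 in 12 of them. Of the 4 leukocyte markers listed, 2 have a row in the table. The pan-leukocyte marker PTPRC had 51 and 31 counts in A375 on drug and 2 in each library at 48 h, and was at 0 in all 8 libraries of 451Lu. CD14 had at most 4 counts. The summed level of this list ran from 2.40 to 3.25 CPM on drug to 0.180 and 0.184 at 48 h in A375, and stayed between 0 and 0.321 in 451Lu, so it did not rise where ITGAX rose. ITGAE, the chain that on intraepithelial lymphocytes pairs with ITGB7, lay between 8.58 and 17.5 CPM in all 16 libraries and fell by 0.41 (A375, 48 h) and 0.78 (451Lu, 120 h) on the log2 scale. The A375 call was lost with DESeq2 (adjusted p = 0.0542) and without 48 h replicate 2 (log2 -0.28, adjusted p = 0.0973). HASPIN, an intronless gene on the opposite strand, overlaps its exons, and strand-specific counting is not stated. ITGAD, ITGAL, ITGAM and ITGB7 never exceeded 9 counts.

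**Figure D1:**
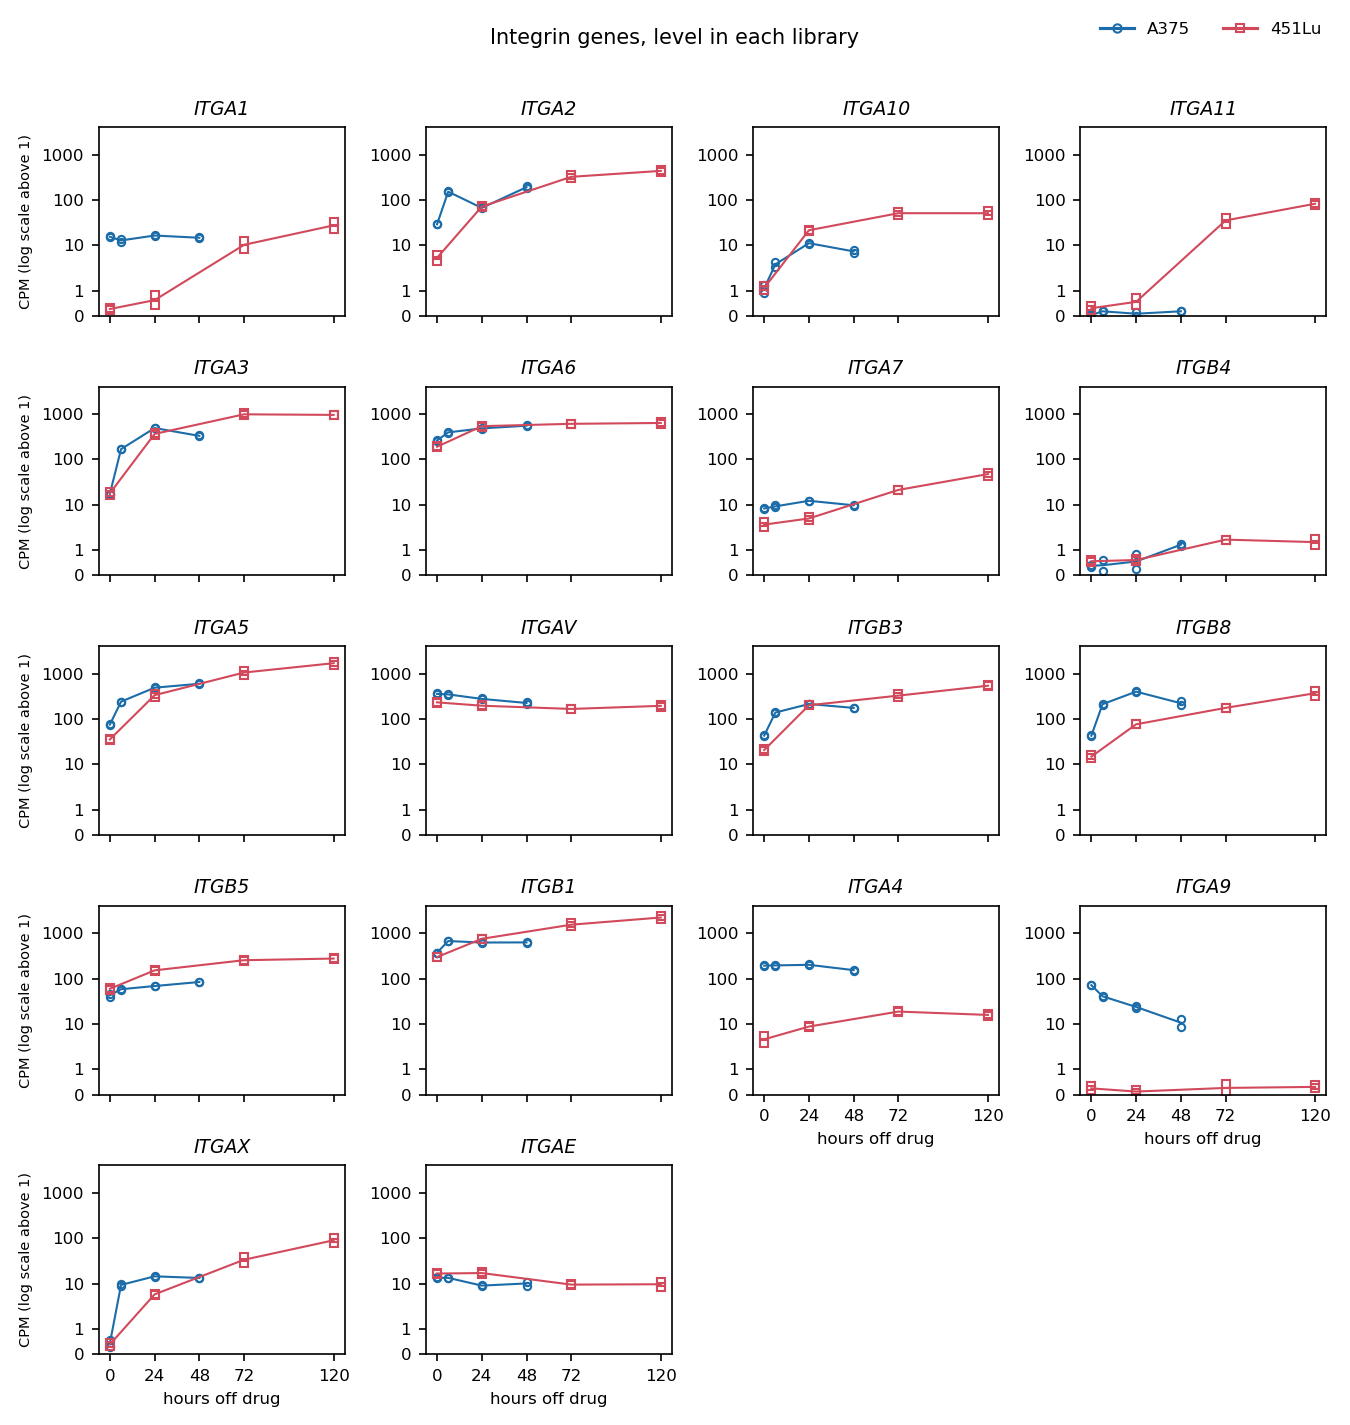
Level of 18 integrin genes in every library (open symbols) against hours off drug, with lines through the group means, in CPM on a scale that is logarithmic above 1 and with each line scaled on its own. ITGA5 climbs at each step in both lines, and ITGA3 and ITGAX end above their on-drug levels in both. ITGA1, ITGA7 and ITGA11 climb after 24 h in 451Lu, and ITGA9 falls in A375.

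Laminin alpha chains, which carry the sites that integrins bind, behaved differently in the lines. In 451Lu all 5 fell at 24 h, and by 120 h LAMA4 had risen above its starting level, LAMA2 had returned to its own, and LAMA1 and LAMA3 remained lower. In A375 no called change of an alpha chain against on drug reached 2-fold. Without A375 48 h replicate 1, however, LAMA2 (log2 -1.54 in place of -0.79, adjusted p = 0.0101) and LAMA3 (-2.62 in place of -0.55, adjusted p = 0.0251) were called lower at 48 h, and LAMA5 at 6 h was at -1.02 under upper-quartile scaling.

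LAMA4, the alpha chain of vascular and mesenchymal basement membranes, had 30.2 and 28.8 CPM on drug in 451Lu, 9.83 and 10.7 at 24 h, 38.8 and 38.2 at 72 h and 150.5 and 146 at 120 h. It therefore fell and then rose, with log2 fold changes of -1.52 ± 0.09, 0.39 ± 0.08 and 2.33 ± 0.07 (adjusted p = 1.82e-14 at 120 h), and both later steps were called at close to 4-fold. In A375 LAMA4 lay at 542 and 541 CPM on drug and rose to 859.8 and 821 at 48 h (log2 0.63 ± 0.04). Its small rise at 6 h there (0.19 ± 0.04) was lost under upper-quartile scaling (log2 0.01, adjusted p = 0.862). LAMA2, the muscle and nerve chain, had 137 and 141 CPM on drug in 451Lu, 58.5 and 61.2 at 24 h, 104 and 117 at 72 h and 134 and 154 at 120 h, where it no longer differed from the on-drug cells beyond the spread (log2 0.05 ± 0.07, adjusted p = 0.543). In A375 it had 29 counts or fewer in each library.

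LAMA1, the chain of early embryonic basement membranes, fell in 451Lu from 343 and 357 CPM on drug to 253 and 261 at 24 h, 133 and 135 at 72 h and 107 and 125 at 120 h (log2 -1.60 ± 0.07, adjusted p = 2.19e-12). It moved between 25.5 and 44.7 CPM in A375, up at 6 and 24 h (log2 0.52 and 0.45) and down at 48 h (-0.25, not called with DESeq2, adjusted p = 0.0671). LAMA5, a widely expressed epithelial and vascular chain, fell in 451Lu from 6.78 and 9.56 CPM on drug to 5.02 and 5.15 at 24 h and 3.33 and 3.70 at 72 h, and stood at 7.71 and 6.39 at 120 h (log2 -0.22 ± 0.18, adjusted p = 0.281). The 24 h fall (-0.70 ± 0.19) was -0.42 and not called without on drug replicate 2 (adjusted p = 0.127). LAMA5 also fell at 6 h in A375 (log2 -0.84 ± 0.15).

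LAMA3 and LAMB3 encode chains of the laminin that anchors epidermis to dermis, and in 451Lu they moved in opposite directions. LAMB3 (chromosome 1, 209614870 to 209652466) rose in both lines. In A375 it had 2.77 and 2.40 CPM on drug, 3.91 and 2.70 at 6 h, 12.3 and 11.8 at 24 h and 17.5 and 15.7 at 48 h, 6.36-fold (log2 2.67 ± 0.16, adjusted p = 1.47e-16). The 451Lu libraries gave 6.33 and 6.02 CPM on drug, 54.5 and 43.8 at 24 h, 186 and 141 at 72 h and 183 and 139 at 120 h, 26.2-fold (log2 4.71 ± 0.18, adjusted p = 4.28e-13).

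LAMA3, whose printed promoter holds a pair of AP-1 matches, fell in 451Lu while LAMB3 rose, from 2.91 and 3.59 CPM on drug to 0.349 and 0.499 at 24 h, 0.215 and 0.0948 at 72 h and 0.642 and 0.274 at 120 h. The log2 fold changes were -2.94 ± 0.38, -4.35 ± 0.51 and -2.77 ± 0.38. The 72 h group held 3 counts in all against 110 on drug, a ratio of 21.7 with a 95% counting interval of 7.23 to 107. Without 120 h replicate 1 the last value was -3.58, and without 72 h replicate 1 the 72 h value was -4.98. In A375 LAMA3 had at most 12 counts in a library and was called at no time with all libraries.

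The beta chains LAMB1 and LAMB2 and the gamma chain LAMC1 rose in 451Lu, while in A375 the beta chains changed by less and LAMC1 fell. LAMB1 had 340.2 and 346 CPM on drug in 451Lu, 1016 and 1024 at 24 h, 1378 and 1377 at 72 h and 1130.1 and 1233 at 120 h, so that its largest value was at 72 h (log2 2.01 ± 0.06). The A375 libraries of LAMB1 lay between 582 and 672 CPM, called only at 24 h (log2 0.19 ± 0.04) and not under upper-quartile scaling (log2 0.05, adjusted p = 0.228). LAMB2, the beta chain of neuromuscular and kidney basement membranes, had 63.9 and 65.2 CPM on drug in 451Lu, 81.9 and 78.0 at 24 h, 180.1 and 171 at 72 h and 255 and 252 at 120 h (log2 1.97 ± 0.06). In A375 LAMB2 fell at 6 h (log2 -0.66 ± 0.08) and was above its starting level at 48 h (0.46 ± 0.07).

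LAMC1, the gamma chain of nearly all laminins, moved in opposite directions: in 451Lu it had 296 and 308 CPM on drug, 335 and 341 at 24 h, 684 and 627 at 72 h and 733 and 739 at 120 h, a rise of 1.29 ± 0.06. In A375 it gave 1907 and 1904 CPM on drug, 1891 and 1869 at 6 h, 1594 and 1616 at 24 h and 1141 and 1139 at 48 h, a fall of 0.74 on the log2 scale (SE 0.04, adjusted p = 4.80e-18). LAMC3, a gamma chain of skin and nervous tissue, fell in 451Lu from 4.72 and 5.58 CPM on drug to 1.67 and 1.25 at 24 h, 0.322 and 0.569 at 72 h and 0.402 and 0.639 at 120 h (log2 -3.31 ± 0.33, adjusted p = 1.15e-07). In A375 it lay between 15.5 and 30.1 CPM and was lower at 48 h (log2 -0.81 ± 0.10).

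**Figure D2:**
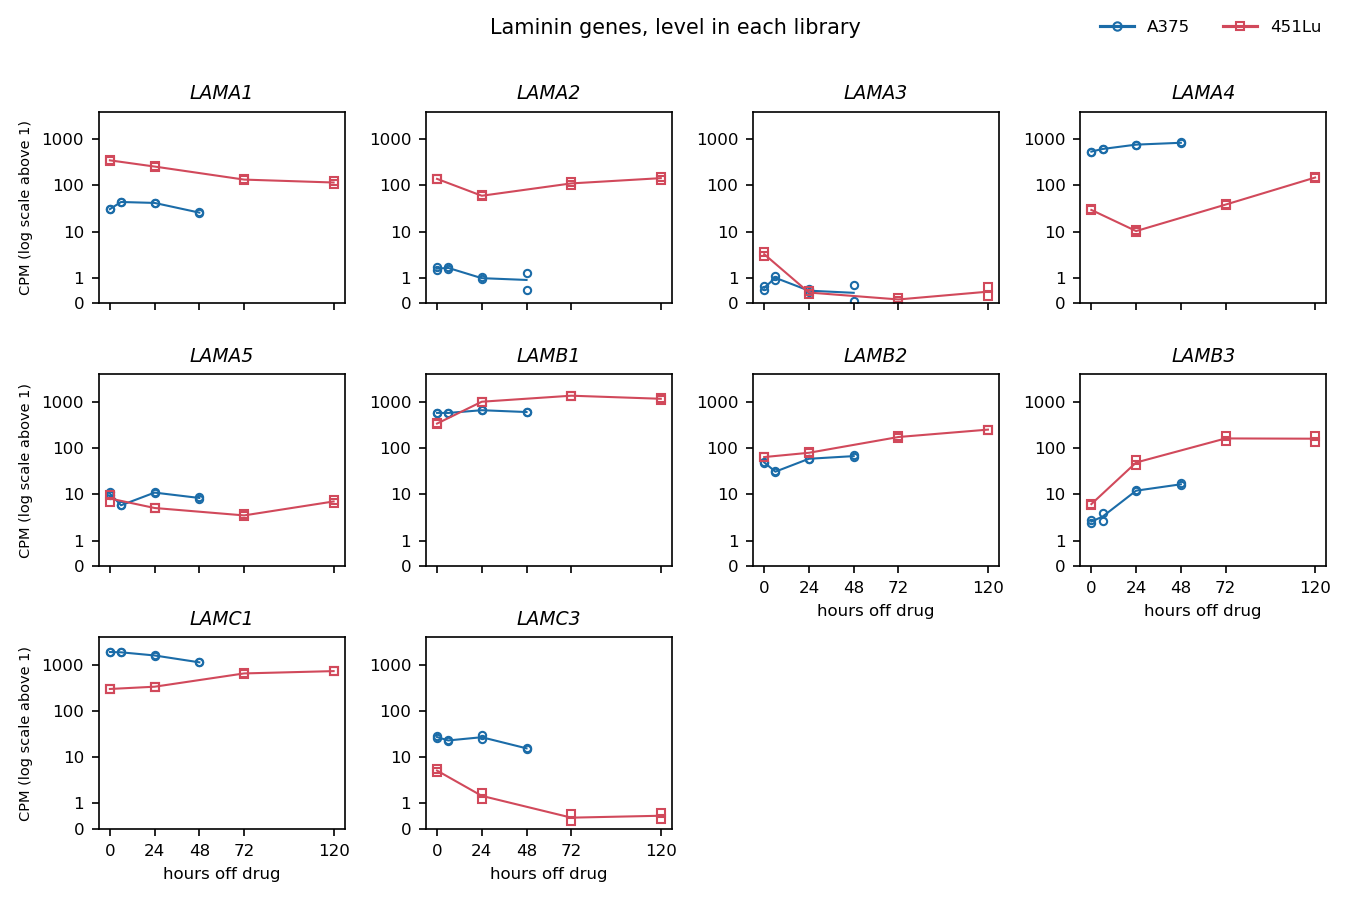
Level of 10 laminin genes, in every library (open symbols) against hours off drug, with lines through the group means, in CPM on a scale that is logarithmic above 1 and with each line scaled on its own. In 451Lu LAMA4 dips at 24 h and ends highest at 120 h, LAMB3 climbs, and LAMA3 and LAMC3 drop below 1 CPM.

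Summed over the family and scaled to CPM of the unadjusted library total, integrin transcripts went from 1753 and 1733 CPM on drug to 3270.4 and 3123 at 48 h in A375. In 451Lu they went from 1008 and 980.5 to 7184 and 6713 at 120 h. Laminin transcripts went from 3529 and 3570.3 to 2741 and 2648 CPM in A375 and from 1351 and 1398 to 2448 and 2538 in 451Lu. Laminin counts exceeded integrin counts in both lines on drug, and integrin counts exceeded laminin counts in both at the last time.

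**Figure D3:**
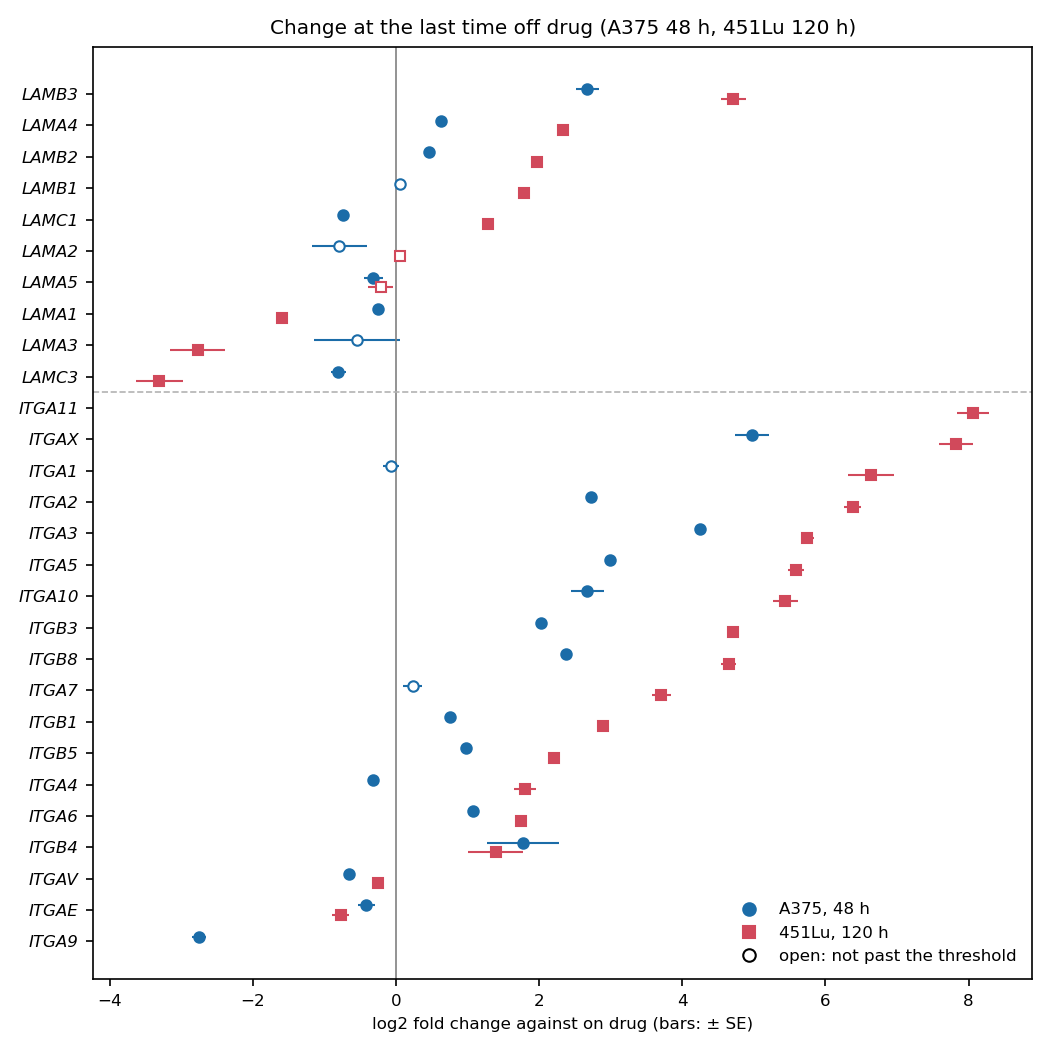
Log2 fold change (± SE) of integrin and laminin genes at the last time off drug, A375 at 48 h (circles) and 451Lu at 120 h (squares), with open symbols for values not past the threshold and a dashed line between integrins and laminins. In 451Lu 15 of 17 integrins lie past the threshold on the higher side, while the laminins lie on both sides of 0.

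To compare chains with each other, counts were divided by exon length (GENCODE release 29) and expressed as a share of the summed integrin alpha or laminin alpha chains in each library. On drug, ITGAV and ITGA6 were the leading integrin alpha chains in both lines, at 32.1% and 31.7% (ITGAV) and 29.5% and 29.3% (ITGA6) in A375. In 451Lu on drug they made up 41.0% and 41.5%, and 42.5% and 42.4%. Off drug the share of ITGAV shrank while those of ITGA5 and ITGA3 grew. In 451Lu at 120 h ITGA5 led at 43.1% and 39.9%, ITGA3 (17.7% and 18.7%) and ITGA6 (16.9% and 19.4%) overlapped, and ITGAV was at 4.49% and 4.31%. In A375 at 48 h ITGA6 still led at 31.0% and 30.4%, followed by ITGA5 at 27.4% and 29.6%, and ITGAV was at 10.4% and 9.45%.

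The beta chains kept their order more closely: ITGB1 was the largest in every library, from 54.4% to 76.9% of the class. ITGB3 was second in every off-drug group, with 22.7% and 23.7% in A375 at 48 h and 21.5% and 22.6% in 451Lu at 120 h. Among laminin alpha chains A375 used LAMA4 nearly alone, at 94.0% to 97.0% in all 8 libraries. In 451Lu the class was mixed. There LAMA1 led on drug at 56.8% and 56.9%, with LAMA2 at 34.6% and 34.5% and LAMA4 at 6.84% and 6.30%. At 120 h LAMA2 stood at 38.9% and 41.5%, LAMA4 at 39.1% and 35.3% and LAMA1 at 20.2% and 22.0%, with no clear order between LAMA2 and LAMA4. LAMB1 was the main beta chain throughout, at 64.5% to 93.4%, and LAMB3 grew from 2.57% and 2.41% to 18.2% and 13.6% of the class in 451Lu. LAMC1 made up 97.9% or more of the gamma chains in every library.

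**Figure D4:**
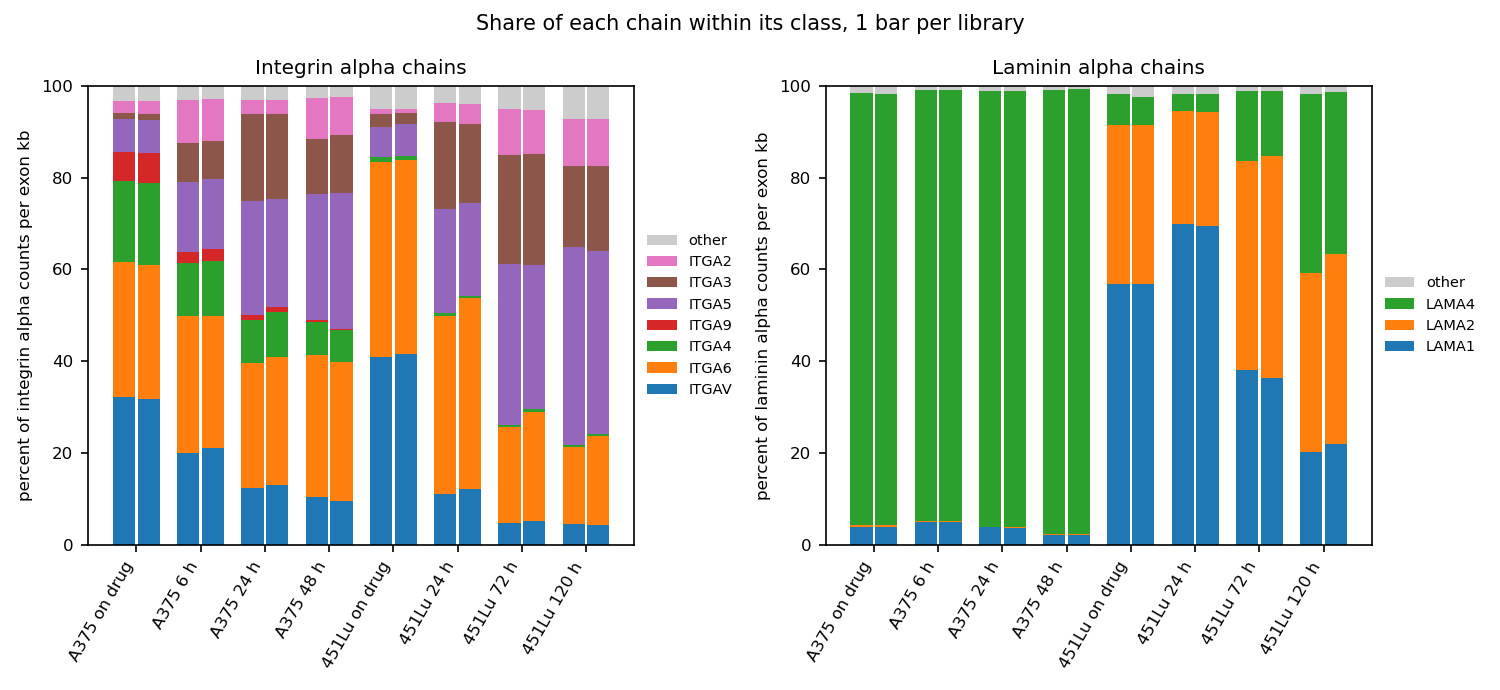
Share of each integrin alpha chain (left) and laminin alpha chain (right) within its class in percent of counts per exon kilobase, with 1 bar per library and the chains not named gathered as other. ITGAV shrinks as ITGA5 and ITGA3 grow in both lines, and LAMA4 fills the A375 bars but reaches only 39.1% and 35.3% in 451Lu at 120 h.

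The lines already differed before the drug was removed. On drug, in a joint fit that puts all 16 libraries on 1 scale, 15 of 29 members were higher in A375 and 8 in 451Lu, where 77.2% of all genes tested were called (37.9% and 39.3%). By at least 2-fold, 9 were higher in A375 and 5 in 451Lu, against 21% and 16.2% of all genes. The largest differences toward A375 were ITGA9 (67.3 and 66.8 CPM against 0.341 and 0.174, log2 8.01 ± 0.20), ITGA1 (14.8 and 14.1 against 0.341 and 0.232, log2 5.63 ± 0.31) and ITGA4 (182 and 179 against 5.59 and 4.06, log2 5.24 ± 0.09). LAMA4 followed at 508 and 505 against 31.8 and 30.2 CPM (log2 4.03 ± 0.06). LAMC1 (log2 2.49 ± 0.05), ITGA2 (2.30 ± 0.13), LAMC3 (2.23 ± 0.13), ITGB8 (1.37 ± 0.11) and ITGA7 (1.02 ± 0.16) were also higher by 2-fold or more in A375. ITGA9 had at most 5 counts in any 451Lu library and passed the count filter only through A375 groups, where it was high. Its difference and its rank therefore had to appear and are no support, while ITGA4 was tested in both lines.

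Toward 451Lu the largest difference was LAMA2, at 144 and 148 CPM against 1.60 and 1.35 (log2 -6.61 ± 0.12 for A375 against 451Lu). LAMA1 followed at 362 and 374.9 against 28.5 and 28.9 CPM (-3.68 ± 0.07), then LAMA3 (-2.59 ± 0.35) and LAMB3 (-1.41 ± 0.29). ITGA11 was called too (-3.04 ± 1.16), on 1 count in A375 and 10 in 451Lu, a ratio of 10.6 with a 95% counting interval of 1.503 to 458. Its value was -2.13 and not called (adjusted p = 0.143) without A375 on drug replicate 1, and -5.05 without replicate 2. ITGA3, ITGA10 and ITGAX, which rose so strongly off drug, did not differ between the lines on drug beyond the spread (log2 -0.21 ± 0.10, -0.19 ± 0.36 and -0.08 ± 0.69). Without 451Lu on drug replicate 2 the difference of ITGA3 was called (-0.33, adjusted p = 0.013).

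At 24 h off drug, the only time off drug that the lines share, the calls were compared between lines that share no library. Of all 12814 genes tested in both, 48.9% of those called higher in A375 were also called higher in 451Lu, and 62.3% the other way round. All 11 integrins called higher in A375 were also called higher in 451Lu, where 12 were (100% and 91.7% of the lists). These shared calls include ITGA7, whose 451Lu call (adjusted p = 0.0472) was lost with DESeq2 (adjusted p = 0.104). They also include ITGAX, which passed the count filter only where it was high in both lines, so its shared call is no support. For laminins 4 were called higher in both, of 6 in A375 and 5 in 451Lu (66.7% and 80%). The size of the change differed between the lines for 17 of 29 members, 10 toward 451Lu and 7 toward A375, where 49.4% of all genes were called (22% and 27.4%). By at least 2-fold, 2 differed toward 451Lu and 3 toward A375 (8.93% and 7.95% of all genes). ITGA2 rose by 2.51 ± 0.16 more on the log2 scale in 451Lu (adjusted p = 7.62e-13), at a time when its A375 level had dipped, and LAMB1 by 1.32 ± 0.07 more (adjusted p = 7.77e-15). The differences toward A375 of at least 2-fold were LAMA4 (-2.09 ± 0.10, adjusted p = 1.40e-15), LAMC3 (-1.87 ± 0.26) and LAMA3 (-2.76 ± 0.74). In 451Lu LAMA3 passed the count filter only on drug, where it was high. Its call is therefore no support for a difference, and no p-value is given. The LAMA3 difference also rested on at most 10 counts in each A375 library and was not called without A375 24 h replicate 1.

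**Figure D5:**
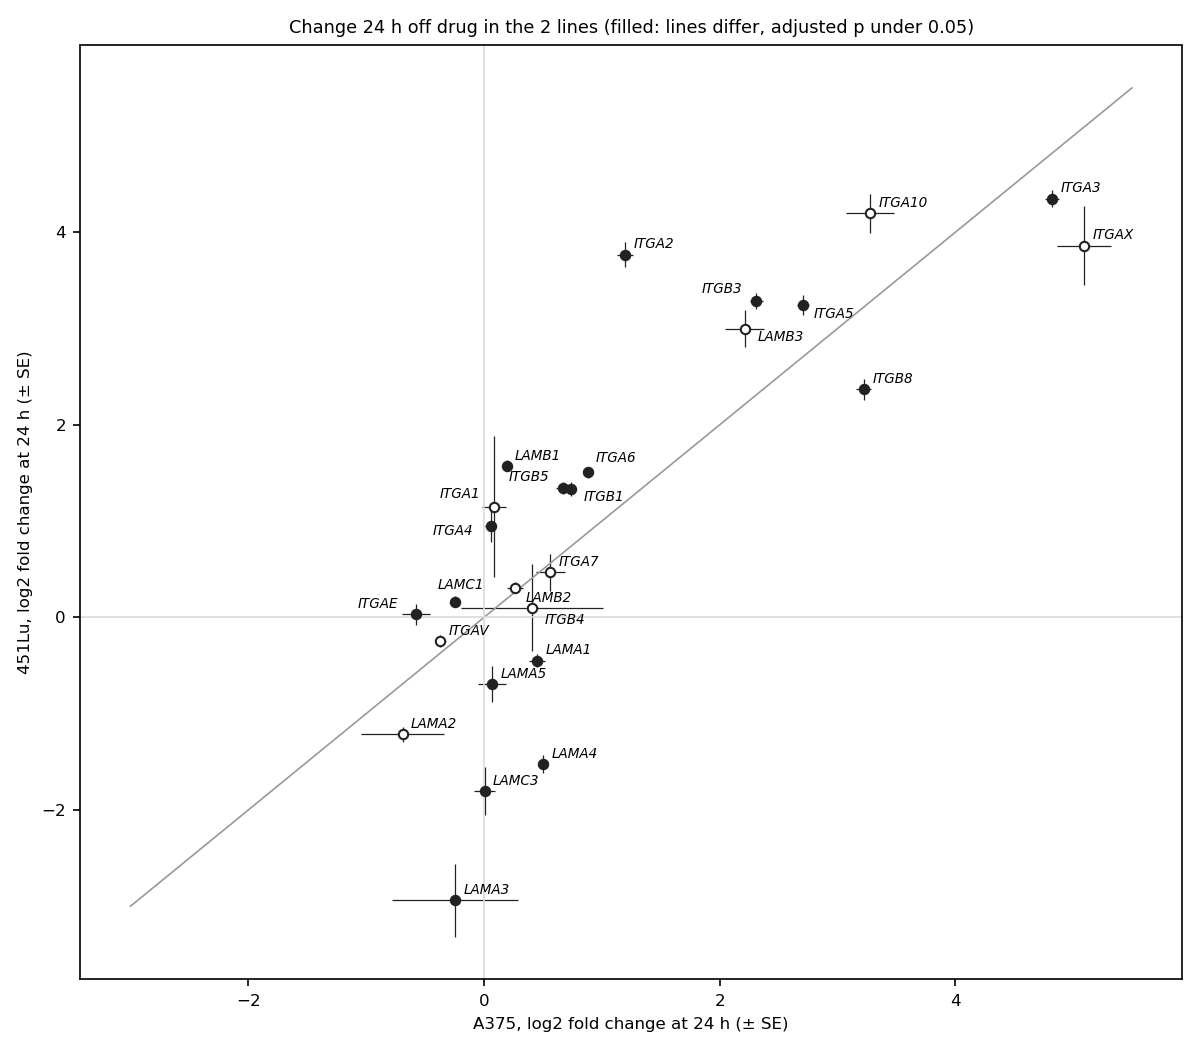
Log2 fold change at 24 h off drug in A375 (horizontal) and 451Lu (vertical), ± SE, for 26 members tested in both lines, with the diagonal of equal change. Filled symbols mark the members whose change differed between the lines: ITGA2 and LAMB1 lie above the diagonal, and LAMA4, LAMC3 and LAMA3 lie below it.

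Between successive times most called steps in A375 were upward at first and downward after 24 h, and in 451Lu they were upward throughout. From 6 to 24 h in A375 16 of 28 members rose and 6 fell, where 69.8% of all genes were called (35.5% and 34.2%). From 24 to 48 h 8 rose and 13 fell, where 29.9% of all genes were called (14.2% and 15.7%). ITGA3, ITGA10, ITGB3 and ITGB8 were among those that rose to 24 h and then fell, by 0.57, 0.60, 0.29 and 0.85 on the log2 scale, although the fall of ITGA10 was not called with DESeq2 (adjusted p = 0.0663). In 451Lu 21 of 28 rose and 4 fell from 24 to 72 h (background 51.4%, with 25.9% and 25.5%), and 15 rose and 2 fell from 72 to 120 h (32.7%, with 16.6% and 16.1%). The only falls in the last step were LAMA1 (log2 -0.21) and LAMB1 (-0.22). Without 120 h replicate 1 neither was called (-0.12 and -0.18), nor was LAMA1 without either 72 h library. These steps share libraries with each other and with the comparisons against on drug.

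Genes that work with these receptors were taken from 3 lists. Adhesion adaptors, the proteins that link integrin tails to actin, were called higher for 15 of 24 tested and lower for 6 in A375 at 48 h (median log2 0.45), and for 18 and 4 of 25 in 451Lu at 120 h (0.63). For these lists too the background is 36.6% higher and 36% lower over all genes in A375 at 48 h, and 37.3% and 36.6% in 451Lu at 120 h. FHL2 (log2 2.82 ± 0.07), the focal adhesion scaffold PXN (2.71 ± 0.05) and the actin crosslinker FLNA (2.05 ± 0.05) led the rise in A375. The falls there were led by TNS1, on 3 counts against 53 (a ratio of 12.3, counting interval 3.99 to 61.6), TNS3 (-2.88 ± 0.06) and PARVA (-0.76 ± 0.08). In 451Lu the kindlin FERMT1 rose from 2 counts to 80 (a ratio of 57.4, counting interval 15.4 to 482), the hematopoietic kindlin FERMT3 from 0.323 and 0.166 to 1.93 and 1.46 CPM (log2 2.79 ± 0.46), and the focal adhesion protein ZYX by 2.69 ± 0.08. TLN2 (-0.72 ± 0.12), NEDD9 (-0.54 ± 0.13) and PARVA (-0.32 ± 0.06) fell. FERMT1 and FERMT3 had too few counts on drug, and TNS1 too few at 48 h, to pass the count filter there. They passed it through groups where they were higher, so their calls are no support for a change. The counts and medians of these lists carry the same limit as those of the members.

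Basement membrane and laminin partners were higher for 8 of 14 and lower for 3 in A375 at 48 h, and for 9 and 1 of 11 in 451Lu at 120 h, where 72.6% and 73.8% of all genes were called in either direction. The heparan sulfate carrier SDC4 (1.84 ± 0.07 in A375, 2.14 ± 0.07 in 451Lu) and the cytolinker PLEC (1.24 ± 0.05 and 2.66 ± 0.08) were among the 3 largest rises in both lines. SDC1 (1.21 ± 0.11) rose in A375 and COL7A1, the anchoring fibril collagen, in 451Lu (3.00 ± 0.36). BCAM (-0.85 ± 0.26), a receptor for LAMA5, and NID1 (-0.62 ± 0.06), which bridges laminin and collagen networks, fell in A375, as did DST slightly in both (-0.13 ± 0.06 and -0.46 ± 0.09).

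Integrin ligands were called in both directions in A375 and mostly higher in 451Lu. In A375 at 48 h 5 of 13 rose and 5 fell, with a median of -0.02, where 72.6% of all genes were called. In 451Lu at 120 h 11 of 12 rose and 1 fell, with a median of 4.89, where 37.3% of all genes rose and 36.6% fell. Fibronectin, FN1, the ligand of ITGA5, had 611 and 673 CPM on drug in 451Lu, 8761 and 6981 at 24 h, 56486 and 46279 at 72 h and 67896 and 68855 at 120 h (log2 6.73 ± 0.12). In A375 FN1 lay between 116 and 188 CPM. The osteopontin gene SPP1 went in opposite directions, up in 451Lu (0.775 and 0.718 to 134 and 123 CPM, log2 7.42 ± 0.26) and down in A375 (35.5 and 34.4 to 10.4 and 9.63 CPM, log2 -1.80 ± 0.10), and EDIL3 rose in 451Lu (6.17 ± 0.35). TNC (2.42 ± 0.05), TGFB1 (1.98 ± 0.08) and COL1A1 (1.80 ± 0.41) rose in A375, while THBS1 (-1.67 ± 0.25) and FBN1 (-1.22 ± 0.30) fell there and TGFB2 (-1.05 ± 0.19) fell in 451Lu.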

How the data were processed

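The authors deposited raw read counts per Ensembl gene for 16 libraries. Reads were aligned with TopHat2 2.1.0 and Bowtie 1.0.0 to GRCh38, per the submitters' processing notes. How reads were counted, with which annotation and strand setting, is not given in the sources used here. Counts of overlapping genes may be shared. The members, role groups and partner lists were chosen with earlier results of these data known.

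Each line (8 libraries, 4 groups) was fitted alone in edgeR 4.0.16 (R 4.3.3) with TMM scaling, filterByExpr (minimum count 10, minimum total 15) and the quasi-likelihood F test, with Benjamini-Hochberg adjustment over all genes tested (14449 in A375, 13851 in 451Lu) and a threshold of 0.05. Contrasts between lines came from a joint fit of 16 libraries (15481 genes). Standard errors were taken from each fold change and its F statistic (size over root F). TMM takes most genes as unchanged, so levels are relative and not amounts per cell. The fits were tested on simulated data. Where a group held 1 to 3 counts, a ratio with an exact Clopper-Pearson interval is given, which covers counting error only. Exon lengths are GENCODE 29 unions, and 34 of 37 members have its coordinates in the table.

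Members were given library by library in a line where they were called with a change of at least 2-fold at any time against on drug, except 1 member that enters the counts and is not reported here. Partners were named as up to 3 called rises and 3 called falls of largest size per list and line at the last time, and line differences as members called with at least 2-fold. Alternatives were relative log expression and upper-quartile scaling, no count filter, DESeq2 1.42.0, a test against a 1.5-fold change, a replicate block, other sets of libraries in the fit, and leaving out each library in turn.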

Additional observations from a re-analysis of the deposited data

Results flagged for a closer look

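The change at 24 h off drug differed between the lines for 17 members by the test of the difference itself in the joint fit, with values given as the 451Lu minus the A375 log2 fold change. Each line came off its own drug, so line and drug cannot be told apart in any of them. Members that rose more in 451Lu were ITGA2 (2.51), LAMB1 (1.32), ITGB3 (0.91), ITGB5 (0.61), ITGA6 (0.56), ITGB1 (0.53) and ITGA5 (0.47). ITGA4 (0.83) was called higher in 451Lu only, and ITGAE (0.54) lower in A375 only. LAMC1 (0.35) fell in A375 and was called higher in 451Lu (log2 0.16), a call lost with DESeq2 (adjusted p = 0.0539) and without any 1 of the 4 libraries compared. Among those with a negative difference, ITGA3 (-0.53) and ITGB8 (-0.92) rose in both lines and more in A375. LAMA4 (-2.09) and LAMA1 (-0.96) rose in A375 and fell in 451Lu. LAMC3 (-1.87), LAMA3 (-2.76) and LAMA5 (-0.83) were called lower in 451Lu and not called in A375. The LAMA3 call is no support, since in 451Lu the gene passed the count filter only where it was high.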

How the results depend on the processing

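Testing against a 1.5-fold change instead of any change left 11, 11 and 15 members called at 6, 24 and 48 h in A375, and 9 and 3 for its later steps. It left 6 for the 72 to 120 h step in 451Lu and 8 for the 24 h difference between lines, where 18, 21, 23, 22, 21, 17 and 17 were reported. Under the other alternatives every count of members called stayed within 1.5 times of the reported one. Leaving out each library in turn gave 16 to 17, 20 to 21 and 20 to 25 calls at 6, 24 and 48 h in A375, and 19 to 22 and 15 to 17 for its later steps. In 451Lu it gave 21 to 23, 28 to 28 and 25 to 26 at 24, 72 and 120 h, and 23 to 24 and 13 to 16 for the later steps, with 21 to 24 for the lines on drug and 16 to 18 for the 24 h difference.

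Upper-quartile scaling moved the median of all genes in A375 to -0.24, -0.16 and -0.13 at 6, 24 and 48 h. The change of ITGA4 at 6 h, reported as 0.02 and not called, became -0.16 (adjusted p = 0.00324) with it, and LAMC1, ITGAV and LAMB1 were called lower at that time. Of 265 called member results, 38 lost their call under an alternative other than the 1.5-fold test, 8 of them among the 145 with a change of at least 2-fold, and 0 changed sign. Besides those given with the results, these included the ITGB4 calls at 120 h and from 24 to 72 h in 451Lu and the LAMC3 step from 24 to 72 h there. The cause was not tested.

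Replicate numbers were not taken to pair samples. The difference between the replicates of a group, over all genes tested, was correlated between the groups of each line. This correlation was -0.0393 to 0.0232 in A375. In 451Lu it was 0.133 to 0.137 among the times off drug but -0.0195 to 0.00977 between these and on drug. With the replicate block the counts were 26 for the 24 to 72 h step in 451Lu, 20 for the 24 to 48 h step in A375 and 18 for the 24 h difference, against 25, 21 and 17, and the other 9 were equal to those reported. Depth limits ITGB4, LAMA3 and the on-drug levels of ITGA10, ITGA11 and ITGAX, each with under 70 counts in any on-drug library. In 451Lu it also limits the on-drug level of ITGA1 and the levels of LAMC3 after 24 h.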
